A study of Mus musculus with 4 samples.

Results

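The genes described here are the small nucleolar RNAs (snoRNAs), the related Cajal body RNAs and the non-coding genes that carry snoRNAs in their introns. They were chosen by symbol: every row of the count table whose identifier maps to a mouse symbol that starts with Snora, Snord, Scarna or Snhg and goes on with a digit, or to Gas5. The rule found 87 of the 21971 genes in the table, made up of 46 box C/D RNAs (Snord), 21 box H/ACA RNAs (Snora), 7 Cajal body RNAs (Scarna) and 13 host genes (12 Snhg genes and Gas5). In the GENCODE annotation used for the symbols, 166 genes meet the rule, and those that have no row were not analysed here. Scarna10 is among these.

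The cells were NMuMG, an epithelial line from mouse mammary gland. One line carried TRF1ΔN, a mutated human TRF1 protein (TRF1 binds the telomere repeat), and the other carried the same protein fused to the Vp16 transcription activation domain (Vp16-TRF1ΔN), which was stably expressed to raise TERRA, the RNA transcribed from telomere repeats. Each line was sequenced without TGFβ (0 h) and after 24 h with TGFβ at 5 ng/ml, which drives an epithelial-to-mesenchymal transition, so that there are 4 groups of 1 library each. All 4 groups thus carry a TRF1ΔN protein, and no group used here holds 24 h without TGFβ, parental cells or an empty vector. How many clones stand behind each line is not given in the sources used here. Nothing in the labels says that the libraries came from separate cultures. With 1 library per group, p-values below rest on how far the TGFβ responses of the lines differ from each other. That spread among these 4 libraries may be technical in part. It also holds any true difference between the responses, which makes an average change harder to call.

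SnoRNAs guide chemical changes on other RNAs, above all on ribosomal RNA. Box C/D RNAs, named for the sequences they share near their ends, bind fibrillarin, NOP56, NOP58 and SNU13 and guide methylation of ribose. Box H/ACA RNAs fold into hairpins, bind dyskerin, NHP2, NOP10 and GAR1 and guide the change of uridine to pseudouridine. Cajal body RNAs hold either or both kinds of box and act mainly on spliceosomal RNAs in the Cajal body. Most mammalian snoRNAs are cut from introns after splicing. Many of their hosts encode ribosomal or nucleolar proteins, and others, such as Gas5 and the Snhg genes, are spliced RNAs with little or no coding capacity. A few members, such as Snord118 (U8) and Snord13 (U13), are made from their own promoters and act in cleavage or acetylation of ribosomal RNA rather than as methylation guides.

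The sequences of members that the results turn on are printed 5′ to 3′ as DNA letters from the GENCODE M21 transcripts (build GRCm38, the same assembly as mm10). They show what sets the classes apart. In the C/D type the capitals mark TGATGA, a common form of box C, and the last CTGA, box D.

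Snord17: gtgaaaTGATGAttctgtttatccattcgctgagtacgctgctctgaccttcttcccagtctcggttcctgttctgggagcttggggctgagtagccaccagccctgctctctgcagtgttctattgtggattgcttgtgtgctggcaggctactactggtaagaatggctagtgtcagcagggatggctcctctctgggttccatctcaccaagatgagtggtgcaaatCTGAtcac
Snord104: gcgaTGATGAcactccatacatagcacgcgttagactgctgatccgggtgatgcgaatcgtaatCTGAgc
Snord49a: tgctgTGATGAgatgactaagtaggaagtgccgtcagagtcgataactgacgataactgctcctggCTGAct

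Snord17 lies at chr2:144265979-144266216 on the minus strand within Snx5, Snord104 at chr11:106500993-106501062 on the plus strand, and Snord49a at chr11:62603450-62603521 on the plus strand within 2410006H16Rik. Snord104 lies within no other same-strand gene of the table. Of the 46 box C/D members, 31 (67.4%) held TGATGA and a CTGA within their last 20 bases, read on the RNA strand only, and none of the 21 box H/ACA members did. Over all 1507 GENCODE snoRNA transcripts the share was 23.3%. In the H/ACA type the capitals mark ACA, placed 3 bases before the end.

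Snora57: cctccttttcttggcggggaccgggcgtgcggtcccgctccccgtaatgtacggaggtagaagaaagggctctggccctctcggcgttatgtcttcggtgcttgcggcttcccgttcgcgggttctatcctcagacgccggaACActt
Snora73a: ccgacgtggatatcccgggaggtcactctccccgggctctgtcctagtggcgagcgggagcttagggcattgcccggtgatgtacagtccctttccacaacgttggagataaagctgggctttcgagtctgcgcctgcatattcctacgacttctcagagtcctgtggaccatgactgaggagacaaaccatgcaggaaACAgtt
Snora73b: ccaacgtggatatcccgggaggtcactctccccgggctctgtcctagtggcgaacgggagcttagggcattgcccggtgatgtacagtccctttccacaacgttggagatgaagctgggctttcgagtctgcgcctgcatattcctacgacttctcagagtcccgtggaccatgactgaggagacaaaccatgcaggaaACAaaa

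Snora57 lies at chr19:8888538-8888685, Snora73a at chr4:132352775-132352979 and Snora73b at chr4:132352322-132352526, each on the minus strand, and both Snora73 copies lie within Snhg3. Here 18 of the 21 H/ACA members (85.7%) and none of the C/D members held ACA at that place, against 18.3% of all GENCODE snoRNA transcripts. The Snora73 copies were identical at 198 of 205 positions (96.6%), so the split of reads between them is uncertain. Cajal body RNAs came in both types: 4 of 7 held the C/D letters and 1 of 7 held the ACA.

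Scarna13: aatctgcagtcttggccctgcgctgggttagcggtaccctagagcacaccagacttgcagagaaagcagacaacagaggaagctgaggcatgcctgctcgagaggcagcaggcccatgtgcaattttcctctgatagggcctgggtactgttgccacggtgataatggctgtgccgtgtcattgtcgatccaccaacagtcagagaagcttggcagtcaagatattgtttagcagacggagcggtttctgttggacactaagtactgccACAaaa
Scarna9: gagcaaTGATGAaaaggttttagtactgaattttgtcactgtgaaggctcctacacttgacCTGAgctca
Scarna6: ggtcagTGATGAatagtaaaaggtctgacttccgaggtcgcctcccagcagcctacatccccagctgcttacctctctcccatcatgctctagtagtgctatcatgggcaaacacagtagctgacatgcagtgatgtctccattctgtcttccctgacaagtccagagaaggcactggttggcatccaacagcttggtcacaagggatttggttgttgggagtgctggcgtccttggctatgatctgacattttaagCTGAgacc

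Scarna13, at chr12:105031075-105031349 on the minus strand, is the one with the ACA. Scarna9, at chr9:15326264-15326333 on the minus strand within Cep295, and Scarna6, at chr1:87784556-87784820 on the plus strand within Atg16l1, have the C/D letters. These matches describe letters in the transcripts and were not used to assign the classes.

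The libraries held between 35418985 and 45983910 counts in genes, the fewest in Vp16-TRF1ΔN at 24 h. Mitochondrially encoded genes took 10.2% of counts in TRF1ΔN at 0 h, 13.3% in TRF1ΔN at 24 h, 11.4% in Vp16-TRF1ΔN at 0 h and 15.7% in Vp16-TRF1ΔN at 24 h. Of the mammary epithelial markers, Krt18 lay between 2506 and 3921 CPM and Krt8 between 1574 and 2095 CPM (counts relative to the TMM-scaled size of the library), while Krt7 was at 0.263 to 2.43 CPM. The epithelial markers did not move together with TGFβ. Cdh1 fell by 1.46 ± 0.16 on the log2 scale, while Krt18 rose by 0.56 ± 0.07 and Krt8 by 0.30 ± 0.07. Krt7 changed by -0.75 ± 0.39 (edgeR adjusted p = 0.178). The markers Ptprc and Lyz2 (leukocytes), Pecam1 and Tek (endothelium), Dcn (fibroblasts) and Adipoq (fat cells) stayed at or below 0.21 CPM. Cd68 was at 2.92 to 3.21 CPM. Endothelial Cdh5 rose with TGFβ from 0.084 to 1.19 CPM in TRF1ΔN and from 0.116 to 0.7 CPM in Vp16-TRF1ΔN (edgeR adjusted p = 0.0068), and fibroblast Pdgfra from 0.546 to 2.71 and from 0.766 to 2.19 CPM (adjusted p = 0.00863). Their part in the results below was not tested.

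Much of the snoRNA repertoire was close to the limit of what these libraries can show. Total RNA was depleted of ribosomal RNA before sequencing. The 74 small RNA members together took 0.0127%, 0.014%, 0.0152% and 0.0123% of the counts in TRF1ΔN at 0 h and 24 h and Vp16-TRF1ΔN at 0 h and 24 h. Of the 87 members 53 had enough counts to be tested (filterByExpr, minimum count 10): 23 of 46 box C/D, 12 of 21 box H/ACA, 5 of 7 Cajal body RNAs and 13 of 13 host genes. A member that passes such a filter may do so through the libraries where it is high, so counts over the tested members do not speak for all of them.

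The other 34 members were too low to judge, each with 3 to 29 counts over all 4 libraries together. The 23 box C/D RNAs among them were Snord4a, Snord7, Snord8, Snord11, Snord42b, Snord53, Snord58b, Snord59a, Snord61, Snord70, Snord71, Snord73a, Snord85, Snord88c, Snord89, Snord90, Snord91a, Snord92, Snord93, Snord98, Snord110, Snord111 and Snord118. The 9 box H/ACA RNAs were Snora5c, Snora19, Snora20, Snora30, Snora34, Snora43, Snora47, Snora69 and Snora73a, and the Cajal body RNAs were Scarna3a and Scarna3b. Snord118, which is needed for the large ribosomal subunit, had 9, 11, 3 and 5 counts in TRF1ΔN at 0 h and 24 h and Vp16-TRF1ΔN at 0 h and 24 h. Its ratio of 24 h to 0 h was 1.38 in TRF1ΔN, with a 95% counting interval of 0.521 to 3.78. In Vp16-TRF1ΔN it was 2.10, with an interval of 0.408 to 13.5. No change of modest size was detectable at such counts.

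Among the small RNAs a few members held most of the counts. Scarna2, a long Cajal body RNA of 414 bases, had 34.0 and 45.5 CPM in TRF1ΔN at 0 h and 24 h and 39.3 and 39.0 CPM in Vp16-TRF1ΔN at 0 h and 24 h. Snora73b, a copy of the U17 RNA that acts in processing of pre-ribosomal RNA, had 23.7, 21.6, 34.9 and 21.6 CPM in the same order. For Snora73b the library of Vp16-TRF1ΔN at 0 h stood above the other three, which lay close together. Scarna13 had 13.1, 18.3, 15.1 and 18.0 CPM, with both TGFβ libraries above both 0 h libraries. Snora78 had 10.4, 14.0, 12.2 and 10.6 CPM, highest in TRF1ΔN at 24 h. Snora57 had 5.67, 4.54, 6.03 and 5.57 CPM, lowest in TRF1ΔN at 24 h.

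The box C/D RNAs were lower in count. Snord17, the one with the most counts, had 3.69, 3.18, 4.08 and 3.53 CPM in the same order. None of its ratios (24 h to 0 h in either line, or line to line at either time) had a counting interval that excluded 1. Snord104 had 2.79, 2.57, 2.99 and 2.68 CPM, and Snord15a had 1.83, 2.64, 2.27 and 2.22 CPM. The median total count of the 46 box C/D members over all libraries was 31.5, against 77 for H/ACA and 185 for Cajal body RNAs. Per kilobase of exon, which allows for length, the highest mean levels were those of Snora73b (124 CPM per kb), Scarna2 (95.3), Snora78 (92.1), Scarna13 (58.7) and Snhg8 (58.5). How fully RNAs of such short lengths were captured was not tested. Gas5 had 56.7 CPM per kb and Snord104 39.4 CPM per kb. Length and total count were weakly related over the 74 small RNAs (Spearman's rho 0.16, a description over RNAs counted in the same libraries).

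**Figure D1:**
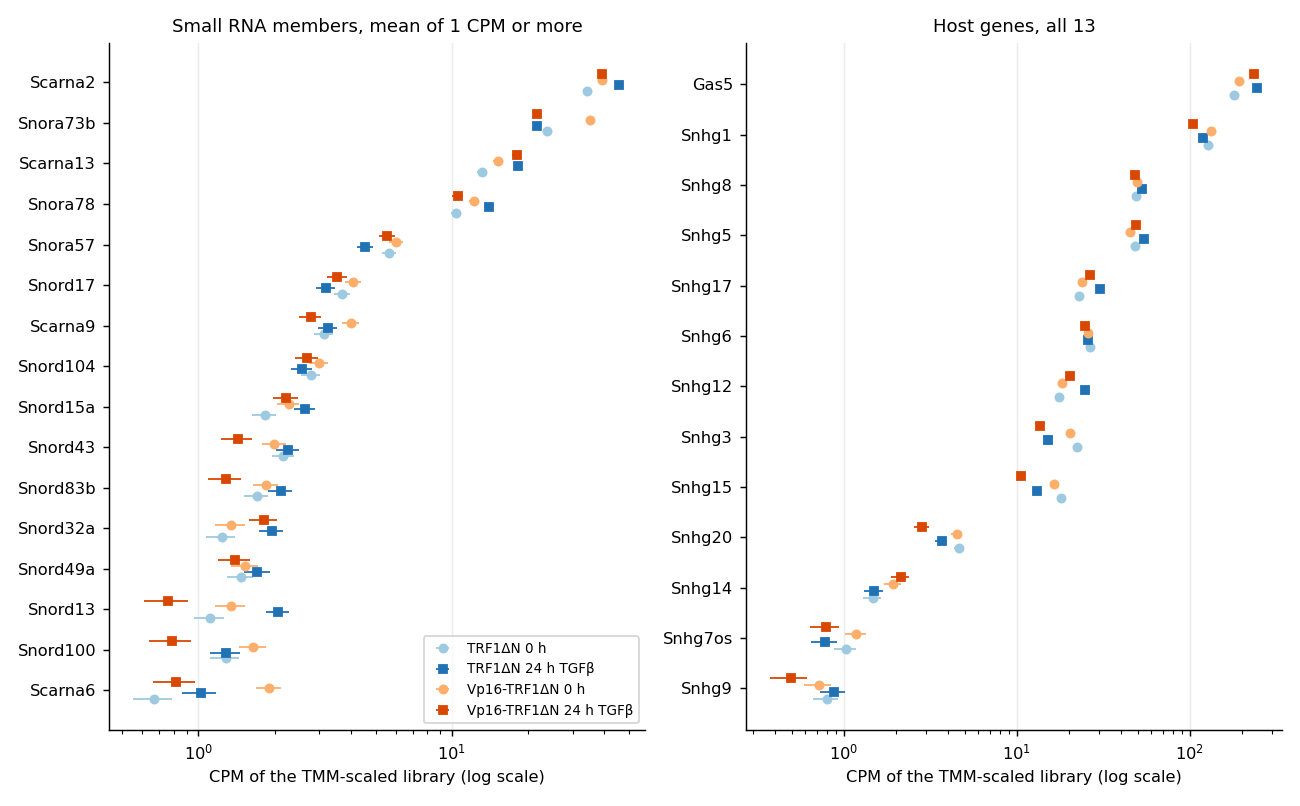
Level of each small RNA member with a mean of at least 1 CPM (left) and of the 13 host genes (right) in CPM of the TMM-scaled library on a log axis. Circles are 0 h, squares 24 h with TGFβ, blue TRF1ΔN, orange Vp16-TRF1ΔN, and bars are the square root of the count on either side. Scarna2 lies between 34.0 and 45.5 CPM, and Gas5 between 180 and 245 CPM.

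The host genes were measured far better. Gas5, the growth-arrest-specific gene whose introns hold many box C/D RNAs, had 8568, 10329, 8342 and 7995 counts, or 180, 245, 194 and 233 CPM, in TRF1ΔN at 0 h and 24 h and Vp16-TRF1ΔN at 0 h and 24 h. Both of its TGFβ libraries lay above both 0 h libraries. Snhg1 had 128, 119, 132 and 104 CPM, lowest in Vp16-TRF1ΔN at 24 h. Snhg8 had 48.8, 52.7, 49.6 and 48.4 CPM, and its libraries lay close together.

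The first comparison asked how the members responded to 24 h with TGFβ on average over both lines. Few of the small RNAs passed the test: 0 of 23 box C/D and 0 of 12 box H/ACA RNAs did, and of 5 Cajal body RNAs only Scarna13 did, which rose. Of 13 host genes Gas5 rose, Snhg3 and Snhg15 fell, and 10 did not pass. In all 2 tested members rose, 2 fell and 49 of 53 did not pass, at an adjusted p under 0.05 from edgeR's quasi-likelihood test. Much of the transcriptome differed between 24 h with TGFβ and 0 h in the same fit, where 48.5% of 14305 tested genes passed, 23.1% as higher and 25.4% as lower.

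Gas5 rose by 0.36 ± 0.07 on the log2 scale (± is the SE of the fit, adjusted p = 0.0192). The ratio of 24 h to 0 h was 1.36 in TRF1ΔN (95% counting interval 1.33 to 1.40) and 1.21 in Vp16-TRF1ΔN (1.17 to 1.24). Snhg8, Snhg5 and Snhg6, which did not pass, were at 0.04 ± 0.07, 0.14 ± 0.07 and -0.05 ± 0.08 on the log2 scale. The hosts summed to 520 and 587 CPM in TRF1ΔN at 0 h and 24 h, and without Gas5 the other 12 summed to 340 and 342 CPM. In Vp16-TRF1ΔN the hosts summed to 533 and 537 CPM, and without Gas5 to 339 and 304 CPM, a ratio of 0.896 (0.873 to 0.918). In bulk RNA, fewer cells of a kind and less RNA per cell cannot be told apart, here and below.

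Snhg3, the host of both Snora73 copies, had 22.4 and 15.1 CPM in TRF1ΔN at 0 h and 24 h and 20.3 and 13.6 CPM in Vp16-TRF1ΔN at 0 h and 24 h. On the log2 scale it fell by 0.57 ± 0.08 (adjusted p = 0.00743), with nearly equal ratios of 0.675 (0.611 to 0.745) and 0.668 (0.596 to 0.749) in TRF1ΔN and Vp16-TRF1ΔN. Snhg15, a non-coding RNA that holds an H/ACA RNA, had 17.9 and 13.2 CPM in TRF1ΔN and 16.5 and 10.7 CPM in Vp16-TRF1ΔN, in the same order of times. The fall was -0.54 ± 0.10 on the log2 scale (adjusted p = 0.0146). In both genes, as in Gas5 and Scarna13, the 0 h and the 24 h libraries did not overlap. How many of all genes separate in this way was not counted. Of 14305 tested genes 12281 moved in the same direction in both lines, so the separation is no further support for these members.

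Some hosts came near the threshold without passing it. Snhg12 changed by 0.34 ± 0.12 on the log2 scale (adjusted p = 0.0706), with 17.5, 24.8, 18.2 and 20.4 CPM. Snhg17 changed by 0.28 ± 0.10 (adjusted p = 0.0786), Snhg1 by -0.22 ± 0.08 (adjusted p = 0.0897) and Snhg20 by -0.49 ± 0.18 (adjusted p = 0.0814). Snhg14, the long host transcript of the Prader-Willi region, had 1.47, 1.5, 1.93 and 2.13 CPM and changed by 0.09 ± 0.21 with TGFβ. Snhg9 and Snhg7os were at 0.496 to 1.18 CPM, and their changes of -0.15 ± 0.32 and -0.49 ± 0.26 did not pass. Both are annotated as antisense genes and the strand setting of the counting is not given, so their reads cannot be told apart from those of the partner strand. Snhg7os is among the hosts by its symbol alone.

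Scarna13 rose by 0.37 ± 0.10 on the log2 scale (adjusted p = 0.0439), with ratios of 1.40 (1.25 to 1.55) in TRF1ΔN and 1.19 (1.06 to 1.33) in Vp16-TRF1ΔN. The call does not hold in DESeq2 (adjusted p = 0.180) or without a term for the line (0.0582), and 23.6% of its bases lie in a same-strand exon of another gene. Scarna2 changed by 0.21 ± 0.12 (adjusted p = 0.233), with a ratio of 1.34 (1.25 to 1.43) in TRF1ΔN and 0.993 (0.924 to 1.07) in Vp16-TRF1ΔN. Scarna9 changed by -0.23 ± 0.22, Scarna6 by -0.35 ± 0.50 and Scarna17 by -0.26 ± 0.51.

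Snora73b changed by -0.41 ± 0.15 on the log2 scale (adjusted p = 0.0901). Its ratio was 0.913 (0.836 to 0.997) in TRF1ΔN and 0.619 (0.566 to 0.676) in Vp16-TRF1ΔN. It passes the test where genes of low count are kept in the fit (adjusted p = 0.0321), as does Snhg12 (0.0394). Snora78 and Snora57 changed by 0.12 ± 0.18 and -0.22 ± 0.15, and a gene on the other strand overlaps each of these 2 and Snora73b, so reads of the strands cannot be told apart. The other 9 tested H/ACA members ran from -0.68 ± 0.48 for Snora17 to 0.52 ± 0.33 for Snora21.

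Among box C/D RNAs, Snord17 changed by -0.21 ± 0.16, Snord104 by -0.14 ± 0.18 and Snord15a by 0.25 ± 0.24 on the log2 scale. The lowest adjusted p in the class was that of Snord32a, 0.109, at 0.54 ± 0.22, with 1.24, 1.95, 1.35 and 1.81 CPM. The full range ran from -0.49 ± 0.34 for Snord100 to 0.87 ± 0.72 for Snord37, which had 4, 16, 10 and 6 counts. No box C/D or H/ACA member had an unadjusted p under 0.05, and DESeq2 also called 0 of each class.

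The median log2 change was 0.015 for the tested box C/D, -0.030 for H/ACA, -0.23 for Cajal body RNAs and -0.047 for hosts, against -0.0085 for all tested genes. The precision differed by class. The median SE was 0.34 for C/D and 0.33 for H/ACA members, 0.22 for Cajal body RNAs, and 0.10 for hosts, as for all tested genes. A change of the size of that in Gas5 would therefore be about 1 SE of a typical C/D or H/ACA RNA and was not detectable for most of them.

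The second comparison asked whether the lines differed on average over both times, as the design set out to compare cells with raised TERRA to cells without. No tested member passed (0 of 53), nor did any gene (0.0% of 14305), although 1779 genes and 0 members had an unadjusted p under 0.05. DESeq2 called 0 members and, over all genes, 13 higher and 34 lower in Vp16-TRF1ΔN. Gas5 differed by 0.02 ± 0.07 (Vp16-TRF1ΔN minus TRF1ΔN, log2), Snhg1 by -0.07 ± 0.08, Snhg3 by -0.14 ± 0.08, Scarna2 by -0.01 ± 0.12 and Snora73b by 0.29 ± 0.15. The median of the 53 members was -0.086 and that of all tested genes -0.007.

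Comparisons of single libraries have no test. Members were counted here from a 2-fold ratio upward, given a mean of 1 CPM or more (27 members, 11777 genes) and a 95% counting interval that excluded 1. With TGFβ in TRF1ΔN 0 members were counted as higher and 0 as lower, where 8.5% and 11.0% of genes were. In Vp16-TRF1ΔN 0 members were higher (7.01% of genes) and 2 were lower (9.17%), Scarna6 and Snord100. Between the lines at 0 h only Scarna6 was counted, as higher in Vp16-TRF1ΔN (0.204% of genes), and at 24 h only Snord13, as lower (1.2% of genes, where 2.23% were higher). For the difference between the TGFβ responses of the lines, 3 members were counted as lower in Vp16-TRF1ΔN (0.926% of genes) and 0 as higher (1.83%). These were Scarna6, Snord13 and Snord100, which all have a mean near 1 CPM and are named here after their values were seen.

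Snord13, which guides acetylation of 18S ribosomal RNA, had 53, 87, 58 and 26 counts, or 1.11, 2.07, 1.35 and 0.759 CPM, in TRF1ΔN at 0 h and 24 h and Vp16-TRF1ΔN at 0 h and 24 h. It was highest in TRF1ΔN with TGFβ and lowest in Vp16-TRF1ΔN with TGFβ. Its TGFβ ratio was 1.86 (1.31 to 2.67) in TRF1ΔN and 0.564 (0.341 to 0.910) in Vp16-TRF1ΔN, a difference of -1.64 on the log2 scale (-2.45 to -0.833). Scarna6 had 32, 43, 82 and 28 counts, with Vp16-TRF1ΔN at 0 h above the other libraries. Its ratio of lines at 0 h was 2.83 (1.86 to 4.41), and its difference of responses was -1.74 (-2.62 to -0.857). Snord100 had 61, 54, 71 and 27 counts and a difference of -1.01 (-1.82 to -0.200). All bases of Snord100 lie in an exon of Rps12, so its reads may be shared with that ribosomal protein gene.

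Beyond these single members, the small RNAs as a group had lower ratios in Vp16-TRF1ΔN than in TRF1ΔN. Summed over all 74, they came to 123 CPM in TRF1ΔN at 0 h, 144 at 24 h, 148 in Vp16-TRF1ΔN at 0 h and 127 at 24 h. The TGFβ ratio of the sum was 1.18 (1.14 to 1.22) in TRF1ΔN and 0.855 (0.823 to 0.889) in Vp16-TRF1ΔN. The line ratio was 1.21 (1.16 to 1.25) at 0 h and 0.877 (0.843 to 0.911) at 24 h. These intervals cover counting error only and say nothing of how 2 cultures of a group would differ.

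**Figure D2:**
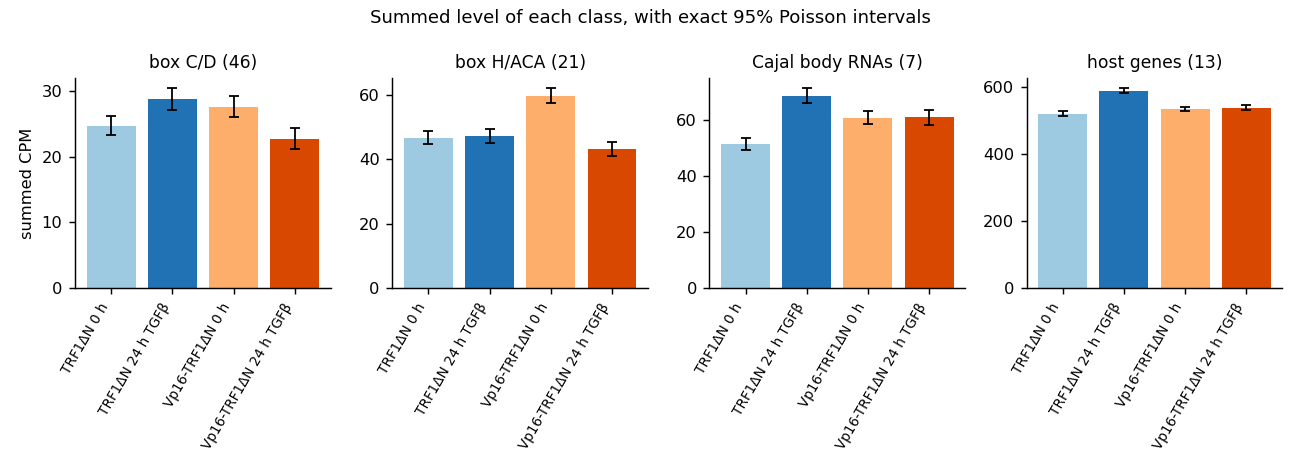
Summed CPM of each class in the 4 libraries, with exact 95% Poisson intervals and axes from 0. Box C/D RNAs run from 22.7 to 28.7 CPM, box H/ACA from 43.1 to 59.6, Cajal body RNAs from 51.4 to 68.7 and hosts from 520 to 587.

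The classes did not follow 1 pattern. Box C/D RNAs summed to 24.7, 28.7, 27.6 and 22.7 CPM in TRF1ΔN at 0 h and 24 h and Vp16-TRF1ΔN at 0 h and 24 h, lowest in the last. Their TGFβ ratio was 1.16 (1.07 to 1.26) in TRF1ΔN and 0.823 (0.751 to 0.902) in Vp16-TRF1ΔN. Box H/ACA RNAs summed to 46.7, 47.1, 59.6 and 43.1 CPM and were set apart by the library of Vp16-TRF1ΔN at 0 h. Without Snora73b, the most abundant member, they came to 23.0, 25.5, 24.7 and 21.4 CPM. Cajal body RNAs summed to 51.4, 68.7, 60.8 and 60.8 CPM, with a TGFβ ratio of 1.34 (1.27 to 1.41) in TRF1ΔN and 1.0 (0.944 to 1.06) in Vp16-TRF1ΔN.

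Counted by direction alone, 29 of the 40 tested small RNAs were higher at 24 h in TRF1ΔN, as were 49.1% of all tested genes. In Vp16-TRF1ΔN 30 of the 40 were lower, as were 50.5% of all tested genes. Both held for 23 of the 40 (57.5%), against 6.89% of all tested genes, of which 12281 of 14305 moved in the same direction in both lines. The median SE was 0.10 for all tested genes, against 0.34 for C/D and 0.33 for H/ACA members. The 6.89% is thus not the share to expect of RNAs with few counts, where counting error can set the direction. The 40 also passed a filter on counts. Over all 74 small RNAs, those too low to judge included, 41 were higher in TRF1ΔN, 50 were lower in Vp16-TRF1ΔN and 31 (41.9%) were both. By class both held for 15 of 23 box C/D, 4 of 12 H/ACA and 4 of 5 Cajal body RNAs, and for 2 of 13 hosts. Of the hosts 12 of 13 had the lower ratio in Vp16-TRF1ΔN, with a median difference of -0.18 on the log2 scale, against -0.56 for the 40 small RNAs and 0.00057 for all tested genes.

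The pattern of directions was not particular to these members. It was also seen in 23 of 46 tested genes that GENCODE types as snoRNA or Cajal body RNA but that carry other symbols (50%, median difference -0.70 on the log2 scale). Of 87 other tested genes with under 200 bases of exon 36 showed it (41.4%), and of 27 other genes typed as small nuclear or miscellaneous RNA 11 did (40.7%). Among 4018 longer genes of like level (0.2 to 5 CPM) it was 10.6%. As a sum, however, the 46 other snoRNA or Cajal body RNA genes rose in both lines. Their TGFβ ratio was 1.57 in TRF1ΔN and 1.14 in Vp16-TRF1ΔN, against 1.18 and 0.855 for the summed members. The sums of the other sets rose in TRF1ΔN and fell in Vp16-TRF1ΔN. They were 1.27 and 0.927 (short genes), 1.29 and 0.703 (small nuclear or miscellaneous RNA), and 1.05 and 0.983 (longer genes). These sets were chosen after the members' values had been seen. The library of Vp16-TRF1ΔN at 24 h has the fewest counts and the largest mitochondrial share of the 4, and the part of either in the pattern was not tested. With 1 library per group, a difference between libraries and one between conditions cannot be told apart. Among the tested small RNAs, 31 have no base in a same-strand exon, and 18 of these showed the pattern. They passed the same filter on counts as the other tested members, so they are no separate support for it.

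**Figure D3:**
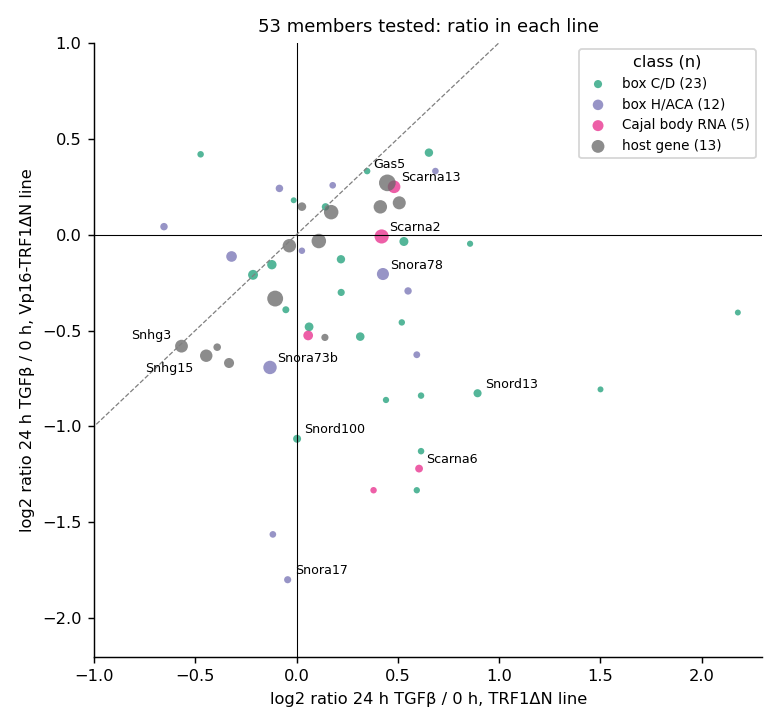
Log2 ratio of 24 h with TGFβ to 0 h in TRF1ΔN (horizontal) and in Vp16-TRF1ΔN (vertical) for the 53 tested members, coloured by class, with larger points for higher mean CPM. Points right of and below the axes are the 23 small RNAs and 2 hosts that were higher in TRF1ΔN and lower in Vp16-TRF1ΔN, among them Snord13, Snora78 and Scarna6, and the dashed line marks equal ratios.

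The small RNAs were next set beside the genes they lie in. Of the 74, 65 lie within a same-strand gene of the table, 55 of them within a protein-coding gene, and 9 lie within none. No base of 56 lies in a same-strand exon, and 6 lie wholly in one. Both the member and its host were tested in 33 pairs, over 26 host genes. In 3 pairs the host rose, in 6 it fell and in 24 it did not pass, and no small RNA of these pairs passed.

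The 3 pairs with a host that rose share 1 gene, 2410006H16Rik, a non-coding RNA that had 65.7, 106, 79.5 and 117 CPM in TRF1ΔN at 0 h and 24 h and Vp16-TRF1ΔN at 0 h and 24 h. It rose by 0.63 ± 0.07 on the log2 scale (adjusted p = 0.0039), while Snord49a, Snord49b and Snord65 in its introns changed by 0.05 ± 0.23, -0.02 ± 0.30 and -0.13 ± 0.52. For Snord49a, whose sequence is given above, the member minus its host was -0.57. The hosts that fell were Snhg3, Cep295, Gnl3 (in 2 pairs), Ncl and Eif5, and 4 of the 6 members in them had a negative change. Cep295, a centriole protein, fell by 0.64 ± 0.07 (adjusted p = 0.0037) beside Scarna9 at -0.23 ± 0.22. Gnl3, the nucleolar protein nucleostemin, fell by 0.55 ± 0.06 (adjusted p = 0.00419) beside Snord19 at 0.42 ± 0.44 and Snord69 at -0.10 ± 0.47. Snhg3 was at -0.57 ± 0.08 and Snora73b within it at -0.41 ± 0.15.

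Over the 33 pairs 21 had the same sign, with Pearson's r 0.23 and Spearman's rho 0.31 (a description across genes that share libraries, and in some pairs a host). The errors of the members were large beside the changes of their hosts. Per kilobase, the small RNA stood above its host in 11 of the 33 pairs, led by Snora78 over Snhg9 (23.3 times), Scarna9 over Cep295 (17.6), Snord100 over Rps12 (8.15) and Snora73b over Snhg3 (6.86). The median of that ratio was 0.213 over the 33 pairs, and 0.0957 over all 65 small RNAs with a host. Most thus had fewer counts per base than the exons of the gene around them. In total RNA, reads of the unspliced host over a member cannot be told apart from those of the small RNA. This also holds for members with no base in a same-strand exon.

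**Figure D4:**
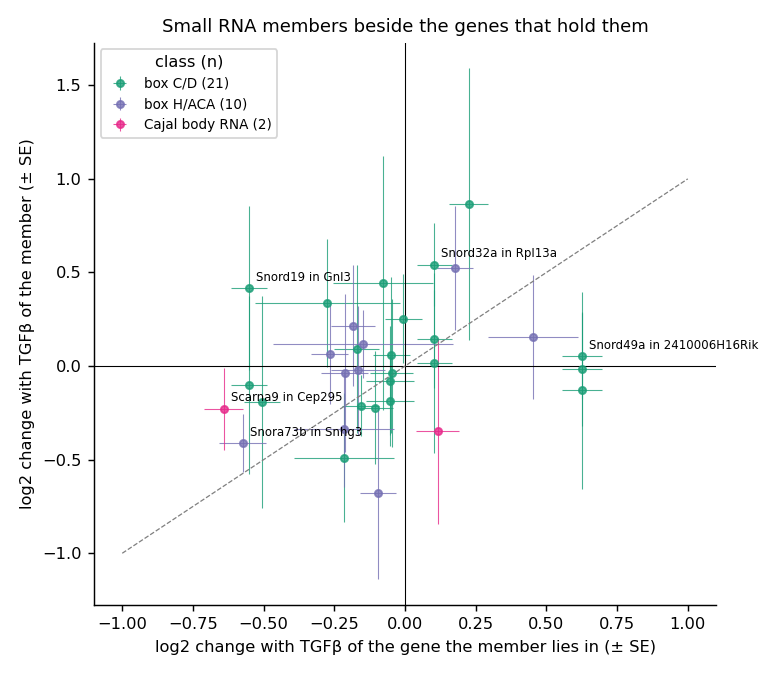
Log2 change with TGFβ, averaged over both lines, of each tested small RNA (vertical) against that of the tested gene it lies in (horizontal), with SE bars and the line of equal change dashed, for 33 pairs. Hosts run from -0.64 (Cep295) to 0.63 (2410006H16Rik), and the members beside them have wider error bars.

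Among the proteins that bind, build and use these RNAs, most of those that passed had fallen with TGFβ. The counts below stand beside 25.4% of all tested genes called lower, 23.1% called higher and 48.5% called in all. Of the 4 core proteins of the C/D particle, Nop56 fell by 0.68 ± 0.08 (adjusted p = 0.00433) and Nop58 by 0.65 ± 0.06 (adjusted p = 0.00299), both on the log2 scale. Nop56 had 149, 99.6, 126 and 73.2 CPM and Nop58 had 235, 153, 205 and 129 CPM, in TRF1ΔN at 0 h and 24 h and Vp16-TRF1ΔN at 0 h and 24 h. Fbl, the methyltransferase fibrillarin, and Snu13 changed by -0.31 ± 0.13 and -0.31 ± 0.10 and did not pass. Of the 4 core proteins of the H/ACA particle, Dkc1, the pseudouridine synthase dyskerin, fell by 0.73 ± 0.06 (adjusted p = 0.00248) and Nhp2 by 0.51 ± 0.07 (adjusted p = 0.00699). Dkc1 had 126, 77.9, 106 and 62.4 CPM, so both lines showed it. Gar1 and Nop10 changed by -0.16 ± 0.10 and 0.19 ± 0.07 and did not pass.

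Of 12 assembly factors 7 fell and 0 rose, where 25.4% of all tested genes fell, with a median log2 change of -0.40 against -0.0085 for all tested genes. Nolc1, a chaperone of both kinds of particle, fell most, by 0.85 ± 0.06, followed by Pih1d1, of the R2TP complex, by 0.60 ± 0.07. The highest values were those of Taf9 (0.38 ± 0.49) and Znhit6 (-0.12 ± 0.13), which did not pass. Of 11 tested genes listed as Cajal body proteins 6 fell and 2 rose (all tested genes 25.4% and 23.1%, median of the list -0.33). The 6 include Usp1, a deubiquitinase that is not an established Cajal body protein and fell by 1.19 ± 0.07. Gemin4 fell by 1.89 ± 0.50, from 19 and 17 counts at 0 h to 3 and 5 at 24 h. Gemin4 is thus poorly measured, and DESeq2 did not call it (adjusted p = 0.311). Ice1, a subunit of the little elongation complex, rose by 0.69 ± 0.14, and Phax, which exports small nuclear RNAs, by 0.28 ± 0.07, a call lost in DESeq2 (adjusted p = 0.143). Coil, the marker protein of the Cajal body, changed by -0.09 ± 0.10 and did not pass.

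Of 29 genes for transcription of ribosomal RNA and for nucleolar proteins 14 fell and 0 rose (median -0.27), so that about the same share was called as the 48.5% of all tested genes, with all of the calls downward. Polr2e, a subunit shared by the RNA polymerases, fell by 0.71 ± 0.09 and Nop2 by 0.66 ± 0.06, while Taf1c and Taf1a stood highest at 0.14 ± 0.10 and 0.08 ± 0.11. Of 24 protein-coding snoRNA hosts 8 fell and 2 rose (median -0.21), fewer calls in all than the 48.5% of all tested genes. Hspa8, a heat shock protein, rose by 0.90 ± 0.07 and Eif4a2 by 0.23 ± 0.07, the latter lost in DESeq2 (adjusted p = 0.141), and the lowest were Dkc1 and Nop56, which are both snoRNP proteins and hosts. The lists overlap in Dkc1, Nop56, Ncl, Ppan and Wdr43, so their counts are not independent. No gene of any list passed between the lines.

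**Figure D5:**
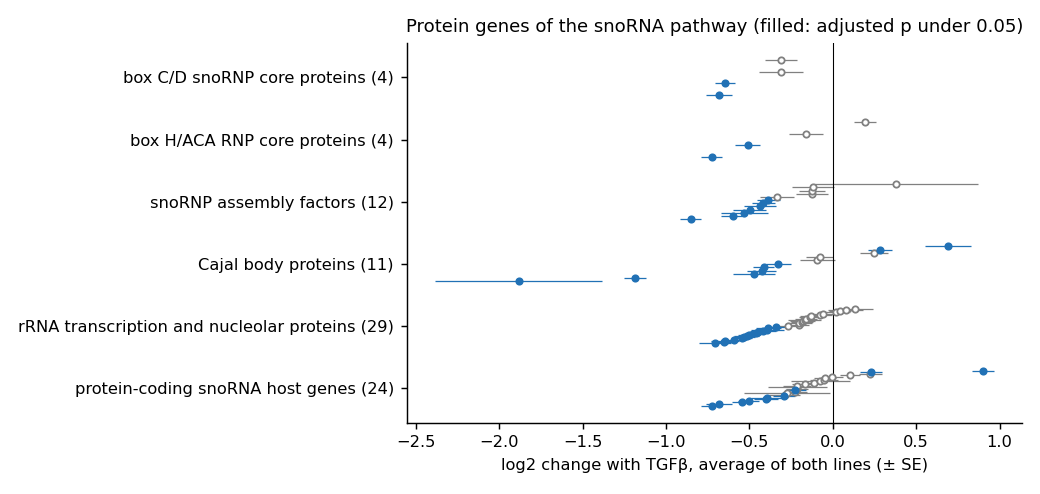
Log2 change with TGFβ, averaged over both lines, with SE bars, for the tested genes of 6 lists of snoRNA pathway proteins and protein-coding hosts; filled points have an adjusted p under 0.05. Most filled points lie left of 0, from Gemin4 at -1.89 to Hspa8 at 0.90.

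Further lists give the setting of the host RNAs. Of 3 tested non-coding hosts under other names, Zfas1 and Epb41l4aos rose, by 0.47 ± 0.06 and 0.48 ± 0.10 (DESeq2 lost the call of Epb41l4aos, adjusted p = 0.0677), where 23.1% of all tested genes rose, and Dancr, at 0.08 ± 0.26, did not pass. Host RNAs such as Gas5 are known substrates of nonsense-mediated decay, and of 14 factors of that pathway 1 rose, 3 fell and 10 did not pass (median -0.014), where 48.5% of all tested genes passed. Eif4a3 fell by 0.50 ± 0.06 and Smg9 by 0.36 ± 0.08, while Smg6, the endonuclease, rose by 0.28 ± 0.07 and Smg8 stood at 0.23 ± 0.07. DESeq2 lost the calls of Smg9 and Smg6 (adjusted p = 0.114 and 0.148). Of 7 long non-coding RNAs that are no snoRNA hosts, 4 rose and 0 fell, where 23.1% of all tested genes rose. Malat1 rose by 1.20 ± 0.12 and Neat1 by 1.09 ± 0.26, the latter lost in DESeq2 (adjusted p = 0.097). The lowest were Mir17hg at -0.48 ± 0.19 and Xist at -0.01 ± 0.06, which did not pass. Of 10 other small RNAs 0 passed in edgeR and 0 in DESeq2, and 0 had an unadjusted p under 0.05. They ran from Terc, the telomerase RNA, at -0.28 ± 0.62 and Rny1 at -0.22 ± 0.24 to Rnu11 at 0.47 ± 0.35 and Rprl2 at 0.54 ± 0.22.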

How the data were processed

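Ribosomal-RNA-depleted total RNA of 4 libraries was sequenced. Per the submitters' processing notes, FastQC, STAR, HTSeq and DESeq2 were used with build mm10; tool versions, strand setting and annotation release were not given in the sources used here. From the authors come the deposited raw counts per gene, used for every test, and normalized log2 values. The deposited log2 values could be rebuilt from the counts by size factors of 1.149, 1.018, 1.042 and 0.832 with 1 added before the logarithm, and were used only for that check. The 4 rows for the constructs were left out. Symbols came from GENCODE M21 (21889 of 21971 matched), with its coordinates and transcripts, and a member's host is the shortest same-strand gene that contains it.

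Libraries were scaled by TMM, and edgeR 4.0.16 was fitted with terms for line and TGFβ to 14305 genes (filterByExpr), with 1 residual degree of freedom, the departure from additivity. The SE follows from the change and the F statistic (change over root F). Tests were two-sided, with Benjamini-Hochberg adjustment, and called under 0.05. Pair ratios carry exact conditional (Clopper-Pearson) 95% intervals, and differences of ratios Poisson intervals with a prior count of 2; both cover counting error only. Scripts were tested on simulated data. Alternatives were DESeq2 1.42.0, other scalings, no low-count filter, fits without the other term, other fold or level limits and, added after seeing the data, other sets of members. Total counts were 45983910, 43354144, 41953130 and 35418985.

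The members and lists were chosen with earlier results of these data known. Members named are the 3 of each class with the highest mean CPM, called changes at a mean of at least 2 CPM, Gas5, Snhg1, Snhg3, Snhg12, Scarna2, Scarna10, Snord118 and Snora73b, and for each list the 2 highest and 2 lowest changes and all core proteins; others were named after their values were seen.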

Additional observations from a re-analysis of the deposited data

Results flagged for a closer look

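In 2 of the 87 members TGFβ went with opposite directions in the lines, with both counting intervals excluding 1. The same count was not made over all genes, so 2 of 87 cannot be called many or few. Snord13 had a 24 h to 0 h ratio of 1.86 in TRF1ΔN and 0.564 in Vp16-TRF1ΔN. Snora78 had ratios of 1.34 and 0.867. The summed box C/D RNAs had ratios of 1.16 and 0.823, and all small RNAs summed had ratios of 1.18 and 0.855. Each group holds 1 library, so the difference between the lines was not tested.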

How the results depend on the processing

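No paired analysis was possible because the labels carry no replicate numbers and each group holds 1 library, which also leaves no replicate to leave out. Of 70 recomputed counts and sums 56 stayed within the limits used, which were 1.5-fold for counts and shares and the main counting interval for sums. The 56 include counts that were 0 in every setting, as for members called between the lines. They also include the share of small RNAs higher with TGFβ in TRF1ΔN, 72.5% of those tested and 55.4% of all 74. For such shares the 1.5-fold limit is so wide that an even split of higher and lower would also have stayed within it. Staying within it is therefore no support for a direction. Of 96 recomputed values of single genes 92 kept their side of the threshold, and none changed direction. The members called higher with TGFβ became 1 with DESeq2's Wald test and 1 without a term for the line, as Scarna13 was lost (adjusted p 0.180 and 0.0582; 0.0251 to 0.0468 in its other fits). Without a filter on low counts Snhg12 and Snora73b were called (adjusted p 0.0394 and 0.0321). With no minimum CPM and with 1.5-fold in place of 2-fold, in that order, the members counted were 2 and 2 higher with TGFβ in TRF1ΔN, 5 and 6 lower with TGFβ in Vp16-TRF1ΔN, 7 and 4 lower in Vp16-TRF1ΔN at 24 h, and 8 and 5 with a lower response in Vp16-TRF1ΔN; 2 were higher in Vp16-TRF1ΔN at 0 h with no minimum CPM. Without Scarna2, the most abundant member, the summed small RNA ratio with TGFβ was 1.12 in TRF1ΔN and 0.806 in Vp16-TRF1ΔN, and without the 3 most abundant it was 0.818 in Vp16-TRF1ΔN. DESeq2 called fewer genes of most lists. It called 4 against 7 assembly factors, 3 against 8 Cajal body proteins and 6 against 10 protein-coding hosts. It called 1 against 2 other non-coding hosts, 2 against 4 decay factors and 2 against 4 long non-coding RNAs. The list of ribosomal RNA transcription and nucleolar proteins had 13 against 14, and each list of core proteins 2 against 2. The share of all genes that DESeq2 called with TGFβ is not given here, so these drops cannot be read as particular to the lists. Low counts limit many small RNAs: 34 of 87 members could not be judged. Why these counts were low was not tested.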
